A study of Mus musculus with 6 samples.

Results

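The tricarboxylic acid (TCA) cycle and fatty acid oxidation were described at the level of their transcripts in mouse embryonic fibroblasts (MEFs) after acute depletion of YME1L. The genes were 41 named enzymes and carriers of pyruvate entry, the TCA cycle with its cytosolic counterparts, the malic enzymes and beta-oxidation, and a row of the count table was taken where its gene name, split at commas, was one of the 41. All 41 were found among the 51499 loci of the table, and all 41 were among the 14499 loci with enough counts to be tested.

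WT MEFs were transfected with Scr siRNA, the scrambled control, or with Yme1l siRNA and were collected 72 h later, with 3 independent cultures per group and 6 poly(A)-selected RNA-Seq libraries in all. The labels give the genotype of both groups as WT MEF and no further agent or allele. The labels call the cells 3T3 immortalized, whereas the methods describe immortalization of loxP-carrying MEFs with SV40 large T antigen and expansion of single clones, so the cells are an immortalized line in either account. YME1L is an ATP-dependent protease of the mitochondrial inner membrane that faces the intermembrane space. The libraries held between 37260605 and 45205207 counts. Levels stand as counts normalised to the TMM-scaled library size (CPM), and a change is the log2 fold change of Yme1l siRNA against Scr siRNA from edgeR's quasi-likelihood test, with its standard error (SE) and a p-value adjusted by the Benjamini-Hochberg method over all 14499 loci. A gene is said to have risen or fallen where this adjusted p was under 0.05.

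Acetyl-CoA enters the TCA cycle from pyruvate, through the pyruvate dehydrogenase complex, or from fatty acids, through beta-oxidation. Long-chain fatty acids reach the matrix as carnitine esters and are shortened there in repeated rounds of dehydrogenation, hydration, dehydrogenation and thiolysis, and the electrons of the first step pass through the electron transfer flavoproteins to the respiratory chain. Several steps of the cycle have cytosolic counterparts that exchange citrate, isocitrate and malate with it and supply NADPH.

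The targeted gene, Yme1l1 at chr2:23156369-23199260 (mm10), was present at 170.5, 171 and 171 CPM in the Scr cultures and at 31.6, 23.4 and 45.0 CPM in the Yme1l siRNA cultures, so that the third culture kept the most of the transcript. Its log2 fold change was -2.36 (SE 0.20), with an adjusted p of 3.87e-05 in edgeR's quasi-likelihood test. Of 9 fibroblast markers, 8 were detected at a level that could be tested, led by Col1a1, and Thy1 had at most 1 count in every library. The summed level of the 8 was 34039 to 41215 CPM in the Scr cultures and 18301 to 22736 CPM after knockdown. Of the 8, 7 fell, beside 29.6% of all loci tested. Of the adipocyte markers, Adipoq, Plin1, Cidec, Lep and Cfd had at most 1 count in any library, and of the leukocyte markers Ptprc, Adgre1 and Itgam had at most 3. The 3 leukocyte markers tested summed to 192 to 206 CPM in the Scr cultures and to 271 to 284 CPM after knockdown. Of these, Csf1r rose, from a mean of 123 to 205 CPM, and Cd68 and Cd14 did not pass the test. Exons of Csf1r share 873 bases with Hmgxb3 on the other strand. The only adipocyte marker tested, Fabp4, rose from 0.640 to 1.66 CPM to 3.29 to 3.82 CPM. The epithelial marker Krt8 had 1 count in every Scr library and 24, 31 and 23 counts after knockdown, and the endothelial markers Kdr and Tek also rose, so that the 3 endothelial markers tested summed to 3.56 to 3.98 CPM and then to 5.45 to 7.21 CPM. The muscle marker Des had 3.30 to 3.77 CPM and then 2.37 to 3.36 CPM and did not pass the test. The part of these marker changes in the results was not tested. The first principal component of the 6 libraries separated the groups (75.0% of the variance), and on the second (10.1%) knockdown cultures 2 and 3 lay at opposite ends. In bulk RNA, fewer cells of a type and less RNA per cell cannot be told apart.

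Regulatory sequence is shown for genes of fatty acid oxidation, the branch with the most genes that fell. The 250 bases before the RefSeq transcript start (GRCm38.p6) were found for 38 of the 41 genes and were searched on both strands for 13 motifs. The hexamer AGGTCA, the half-site bound by nuclear receptors such as the PPAR and ERR families, was present in 8 of the 38 windows (21.1%) and in 5 of the 14 windows of fatty acid oxidation genes (35.7%), beside 12.9% of 10376 windows of tested genes. Windows of 4 of these 5 genes are printed from 5′ to 3′ on the strand of the gene, with the hexamer or its reverse complement in capitals.
Cpt1a, chr19:3323051-3323300, plus strand: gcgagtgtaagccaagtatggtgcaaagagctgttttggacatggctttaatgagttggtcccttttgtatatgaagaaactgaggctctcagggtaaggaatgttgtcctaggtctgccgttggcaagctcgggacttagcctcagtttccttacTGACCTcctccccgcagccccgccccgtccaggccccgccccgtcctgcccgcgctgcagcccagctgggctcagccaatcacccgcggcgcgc
Cpt1c, chr7:44974852-44975101, minus strand: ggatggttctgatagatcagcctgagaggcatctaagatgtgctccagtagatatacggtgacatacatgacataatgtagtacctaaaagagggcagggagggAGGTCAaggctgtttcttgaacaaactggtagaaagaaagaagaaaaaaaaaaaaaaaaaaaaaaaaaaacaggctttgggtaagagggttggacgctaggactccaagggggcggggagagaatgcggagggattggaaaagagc
Acadm, chr3:153944644-153944893, minus strand: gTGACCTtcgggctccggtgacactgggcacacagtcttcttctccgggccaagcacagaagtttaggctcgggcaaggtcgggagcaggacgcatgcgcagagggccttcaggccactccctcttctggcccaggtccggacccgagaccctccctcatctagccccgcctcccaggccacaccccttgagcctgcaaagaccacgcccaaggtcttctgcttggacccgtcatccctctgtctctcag
Acadvl, chr11:70015429-70015678, minus strand: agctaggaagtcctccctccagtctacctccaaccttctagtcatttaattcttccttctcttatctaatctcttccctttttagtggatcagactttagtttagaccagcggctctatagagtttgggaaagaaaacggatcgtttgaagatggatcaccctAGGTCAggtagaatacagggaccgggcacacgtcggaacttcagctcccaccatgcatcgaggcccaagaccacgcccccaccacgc
Each window held 1 match, which began 94 bases before the transcript start in Cpt1a, 146 in Cpt1c, 249 in Acadm and 87 in Acadvl. The fifth gene was Echs1, and the other 3 matches were in the windows of Mpc1, Sucla2 and Fh1. The windows of Acads, Cpt2, Hadh, Hadha, Etfb and Etfdh, which also fell, held no match, and Acaa2 had no window. The longer motifs built on this hexamer, TNAAGGTCA, the DR1 repeat of 2 hexamers 1 base apart and a DR1 repeat in which the T of each hexamer may be any base, were found in 0 of the 38 windows and in 0.771%, 0.0386% and 0.26% of all windows. The NRF1 motif was present in 3 of 38 windows, in 2 of the 14 fatty acid oxidation windows (14.3%) and in 8.99% of all. The GABP motif CCGGAAGTG was in 1, that of Cpt2, and 3.38% of all. The sterol regulatory element TCACNCCAC and the YY1 motif were in 0 windows of the 38 and in 1.28% and 0.569% of all. The CCAAT box CCAATC was in 12 of the 38 windows (31.6%) and in 4 of the 14 fatty acid oxidation windows (28.6%), beside 22.4% of all. The E-box CACGTG was in 2 windows (9.81% of all), CACGTGAC, which contains the E-box, in 1 (3.79%), the CRE TGACGTCA in 2 (2.96%) and the ATF4 composite motif TGATGNAA in 2 (2.38%). A match describes the letters of the window and not the binding of a factor.

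Over the 41 genes, 7 rose and 21 fell, and 13 did not pass the test, beside 58.0% of all loci tested that were called in either direction, 28.4% higher and 29.6% lower. The median log2 fold change of the 41 was -0.23 (range -1.70 to 0.94), beside 0.01 over all loci tested. Called changes reached 2-fold or more in 5 of the 41 genes, beside 15.5% of all loci, and 1.5-fold or more in 10, beside 31.8%. The values of the 2 groups did not overlap for 30 genes, 7 higher and 23 lower after knockdown, beside 65.4% of all loci, 31.9% higher and 33.6% lower. The branches differed in their counts: fatty acid oxidation with electron transfer had 12 of 15 genes lower and 0 higher, the mitochondrial TCA cycle 4 of 12 lower and 3 higher, pyruvate entry 1 of 8 lower and 3 higher, and the cytosolic counterparts with the malic enzymes 4 of 6 lower and 1 higher. Their median log2 fold changes were -0.39, -0.11, 0.15 and -0.32. The difference between branches was not tested. Counts by role given below, of calls and of groups without overlap, stand beside these same shares of all loci. The plot of changes by role shows all 41 genes.

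**Figure D1:**
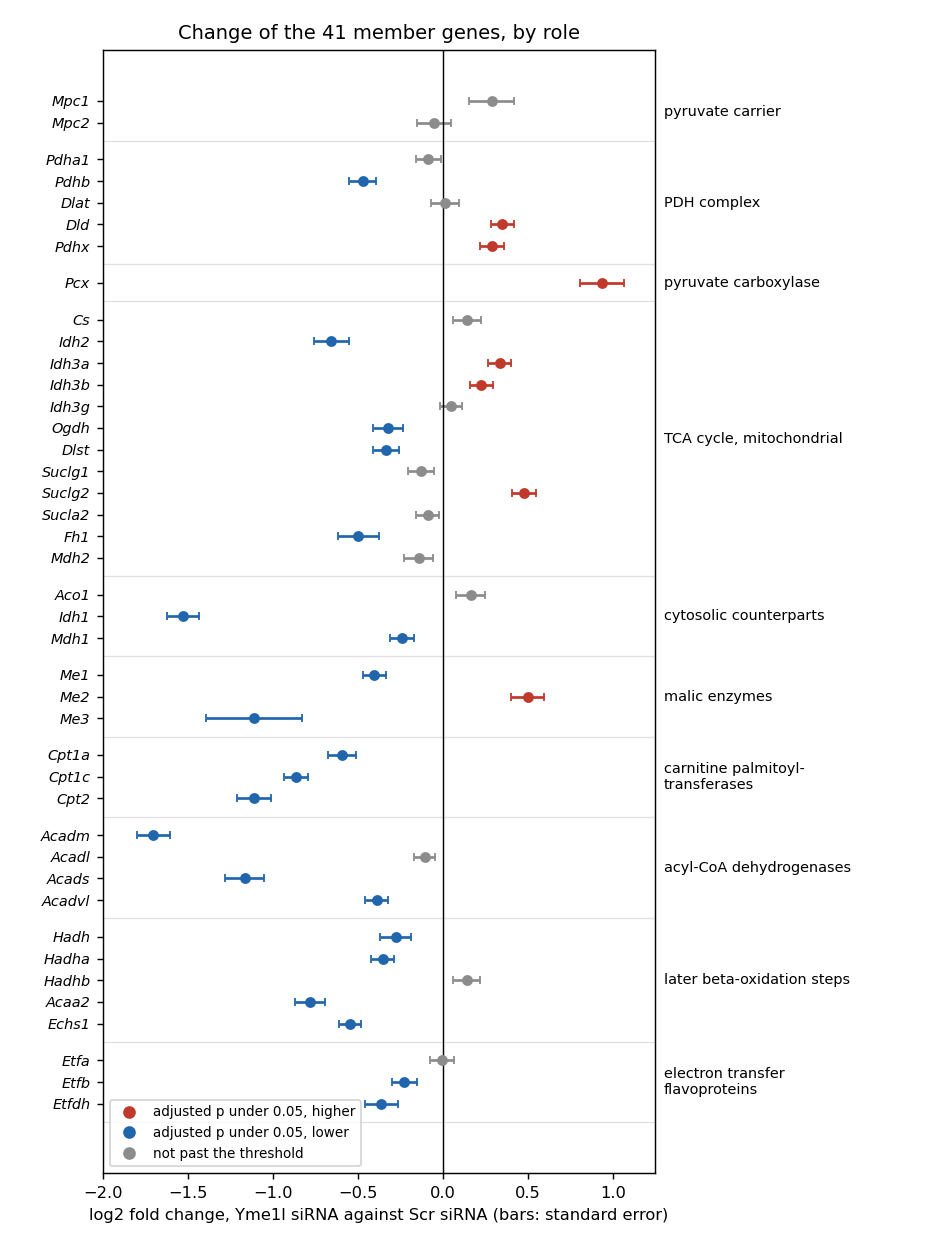
Log2 fold change of the 41 genes (Yme1l siRNA against Scr siRNA, 3 cultures per group), grouped by role, with bars for the standard error and colours for the result of edgeR's quasi-likelihood test. The genes of fatty acid oxidation lie to the left of 0 except Hadhb at 0.14, and the lowest values are those of Acadm at -1.70 and Idh1 at -1.53.

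Fatty acid oxidation begins with the carnitine palmitoyltransferases, and all 3 transcripts fell. Cpt1a, the isoform of liver and most other tissues that makes acyl-carnitines at the outer membrane, is encoded at chr19:3322334-3385733. It was measured at 192, 188 and 194 CPM in the Scr cultures and at 137, 113 and 129.9 CPM after knockdown, and it fell by 0.60 on the log2 scale (SE 0.08, adjusted p = 0.000408). Cpt1c, a paralogue best known from the brain (chr7:44959372-44974851), was at 54.8, 52.3 and 56.7 CPM and then at 28.3, 31.7 and 30.0 CPM, a log2 fold change of -0.86 (SE 0.07, adjusted p = 3.08e-05). Exons of Cpt1c overlap 366 bases of a transcript on the other strand. Cpt2, which rebuilds acyl-CoA on the matrix side (chr4:107903981-107923610), was at 33.1, 31.7 and 34.6 CPM in the Scr cultures and at 15.4, 13.4 and 17.2 CPM after knockdown. It fell to 0.463 of the control level, a log2 fold change of -1.11 (SE 0.10, adjusted p = 4.82e-05). For each of the 3 genes the highest knockdown culture lay below the lowest control.

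The acyl-CoA dehydrogenases carry out the first step of each round, each on its own range of chain lengths, and they moved by unequal amounts. Acadm, the medium-chain enzyme at chr3:153922357-153944632, had 236, 241 and 267 CPM in the Scr cultures and 70.9, 71.7 and 86.0 CPM after knockdown. It fell 3.26-fold, the largest change among the 41, with a log2 fold change of -1.70 (SE 0.10, adjusted p = 7.73e-06). Acads, the short-chain enzyme at chr5:115110299-115119346, had 139, 148 and 147 CPM and then 62.7, 54.9 and 76.0 CPM, a 2.24-fold fall (log2 fold change -1.17, SE 0.11, adjusted p = 6.92e-05). In both genes the knockdown cultures were well separated from the controls, and the third, with the most Yme1l1 transcript left, was the highest of the knockdown cultures. Acadvl, the very-long-chain enzyme bound to the inner membrane, had 167, 175 and 183 CPM and then 131, 138 and 131 CPM, and its log2 fold change was -0.39 (SE 0.07, adjusted p = 0.00134). Its exons share 976 bases with Dvl2 on the other strand. Acadl, the long-chain enzyme, had 85.3, 89.1 and 86.2 CPM in the Scr cultures and 81.1, 82.3 and 78.5 CPM after knockdown. Its groups did not overlap, but its log2 fold change of -0.11 (SE 0.06) did not pass the test (adjusted p = 0.171).

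Of the genes for the later steps of beta-oxidation, 4 of 5 fell, beside 29.6% of all loci tested. Acaa2, the medium-chain 3-ketoacyl-CoA thiolase, had 64.2, 67.7 and 68.8 CPM in the Scr cultures and 38.5, 34.8 and 43.5 CPM after knockdown, a log2 fold change of -0.78 (SE 0.09, adjusted p = 0.000140). Echs1, the short-chain enoyl-CoA hydratase at chr7:140105710-140116476, had 45.8, 46.4 and 44.0 CPM and then 29.5, 31.6 and 32.2 CPM, a log2 fold change of -0.55 (SE 0.07, adjusted p = 0.000208). Hadh, the short-chain hydroxyacyl-CoA dehydrogenase, had 77.7, 79.5 and 74.7 CPM and then 66.0, 55.6 and 69.9 CPM, and its log2 fold change of -0.28 (SE 0.09, adjusted p = 0.0282) passed the test in 2 of the 6 fits that left out a library. Neither group of these 3 genes reached into the range of the other. Hadha and Hadhb encode the alpha and beta subunits of the trifunctional protein, which carries out the last 3 steps on long chains. The 2 genes lie head to head on chromosome 5, with RefSeq starts 273 bases apart, and their transcripts did not move alike. Hadha had 171, 175 and 186 CPM and then 136, 135 and 144 CPM, and it fell (log2 fold change -0.35, SE 0.07, adjusted p = 0.00226). Hadhb had 47.0, 51.7 and 43.0 CPM and then 52.3, 50.7 and 53.1 CPM, overlapping groups with a log2 fold change of 0.14 (SE 0.08, adjusted p = 0.154).

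The electron transfer flavoproteins take the electrons of the acyl-CoA dehydrogenases. Etfa, the alpha subunit, had 84.4, 87.0 and 76.9 CPM in the Scr cultures and 85.1, 83.1 and 79.3 CPM after knockdown, overlapping groups with a log2 fold change of -0.0044 (SE 0.07, adjusted p = 0.962). Etfb, the beta subunit, was counted in a locus that also carries the names Gm45233 and Vsig10l, so its counts may hold reads of those genes. That locus had 53.5, 59.3 and 58.4 CPM and then 45.8, 51.4 and 49.1 CPM, and its fall (-0.23, SE 0.07, adjusted p = 0.0257) passed the test in 3 of the 6 fits without a library. Etfdh, the membrane-bound dehydrogenase that hands the electrons to ubiquinone, had 86.3, 87.2 and 108 CPM and then 73.2, 70.5 and 75.5 CPM, a log2 fold change of -0.36 (SE 0.10, adjusted p = 0.0120). The third Scr culture stood above the other two controls for Etfdh, and the groups did not overlap for Etfdh or Etfb. Summed over the 15 genes of fatty acid oxidation and electron transfer, the level was 1538 to 1629 CPM in the Scr cultures and 1018 to 1096 CPM after knockdown, a mean of 66.7% of the control. This share was uneven by role. It was 54.2% for the acyl-CoA dehydrogenases, 61.6% for the carnitine palmitoyltransferases, 78.4% for the later steps and 87.4% for the electron transfer flavoproteins. The sum of the 12 mitochondrial TCA cycle genes was 2069 to 2114 CPM in the Scr cultures and 1818 to 2124 CPM after knockdown, a mean of 94.0% of the control, and its groups overlapped.

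**Figure D2:**
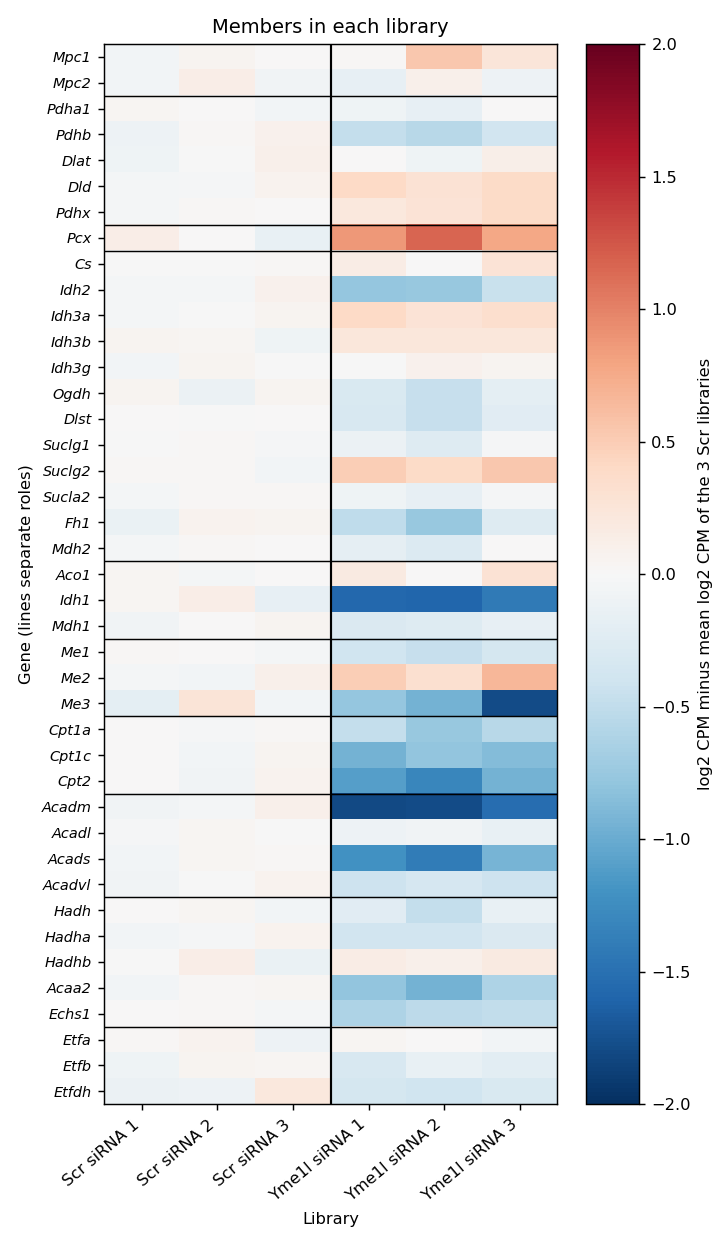
Level of the 41 genes in each of the 6 libraries, as the log2 CPM minus the mean log2 CPM of the 3 Scr libraries of that gene (colour scale, red higher and blue lower), with lines between roles and between the groups. Acadm, Acads, Cpt2 and Idh1 are blue in all 3 Yme1l siRNA libraries, and Pcx is red in all 3.

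Pyruvate entry moved in both directions. The mitochondrial pyruvate carrier is built from Mpc1 and Mpc2, and neither passed the test. Mpc1 had 13.6, 14.7 and 14.1 CPM in the Scr cultures and 14.4, 20.5 and 16.8 CPM after knockdown, overlapping groups with a log2 fold change of 0.29 (SE 0.13, adjusted p = 0.0890). Mpc2 had 18.7, 21.1 and 18.3 CPM and then 17.2, 20.7 and 18.0 CPM, also overlapping (log2 fold change -0.05, SE 0.10, adjusted p = 0.667). Pcx, pyruvate carboxylase, which makes oxaloacetate from pyruvate, is encoded at chr19:4510472-4621752. It had 10.2, 9.37 and 8.41 CPM in the Scr cultures and 17.0, 20.8 and 15.8 CPM after knockdown, and it rose 1.92-fold (log2 fold change 0.94, SE 0.13, adjusted p = 0.000385), the largest rise among the 41. All 3 knockdown cultures lay above all 3 controls, with the second the highest.

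Within the pyruvate dehydrogenase complex, which turns pyruvate into acetyl-CoA, 1 subunit gene fell, 2 rose and 2 did not pass the test. Pdhb, the beta subunit of the E1 component at chr14:8165996-8173025, had 116, 126 and 131 CPM in the Scr cultures and 88.9, 84.5 and 95.6 CPM after knockdown, a log2 fold change of -0.47 (SE 0.08, adjusted p = 0.00106). Pdha1, the alpha subunit of the same component, had 163, 159 and 153 CPM and then 149, 141 and 158 CPM (log2 fold change -0.08, SE 0.07, adjusted p = 0.339). The groups overlapped for Pdha1 and not for Pdhb. Dlat, the E2 acetyltransferase, had 82.8, 87.2 and 93.7 CPM and then 87.8, 82.3 and 95.7 CPM, which overlapped (log2 fold change 0.01, SE 0.08, adjusted p = 0.912). Dld, the E3 dehydrogenase that the complex shares with 2-oxoglutarate dehydrogenase, had 108, 109 and 116 CPM and then 146, 135 and 144 CPM and rose (log2 fold change 0.35, SE 0.07, adjusted p = 0.00245). Pdhx, which tethers E3 to the E2 core, had 30.3, 31.7 and 31.4 CPM and then 36.2, 37.4 and 40.5 CPM and rose as well (log2 fold change 0.29, SE 0.07, adjusted p = 0.00750). For Dld and Pdhx every knockdown culture was above every control.

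Among the isocitrate dehydrogenases of the mitochondrial TCA cycle, 1 gene fell, 2 rose and 1 did not pass the test. Idh2, the NADP-dependent enzyme of the matrix at chr7:80094846-80115392, had 232, 234 and 253 CPM in the Scr cultures and 139, 141 and 176 CPM after knockdown, and it fell with a log2 fold change of -0.66 (SE 0.10, adjusted p = 0.000699), the largest fall among the 12 genes. Idh3a, the catalytic subunit of the NAD-dependent enzyme of the cycle at chr9:54586334-54604661, had 74.0, 75.8 and 79.3 CPM and then 101, 91.8 and 96.8 CPM, and it rose with a log2 fold change of 0.34 (SE 0.07, adjusted p = 0.00300). Idh3b, a regulatory subunit, had 98.9, 98.4 and 89.8 CPM and then 112, 112 and 112 CPM, a rise of 0.23 on the log2 scale (SE 0.07, adjusted p = 0.0192) that passed the test in 4 of the 6 fits without a library. None of these 3 genes had overlapping groups. Idh3g, the other regulatory subunit, had 73.8, 79.0 and 76.1 CPM and then 76.2, 81.3 and 79.2 CPM, and its groups overlapped (log2 fold change 0.05, SE 0.06, adjusted p = 0.544).

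The 2-oxoglutarate dehydrogenase complex and the enzymes after it also differed among themselves. Ogdh, its E1 component, had 247, 220.3 and 247 CPM in the Scr cultures and 192, 172 and 207 CPM after knockdown, and it fell (log2 fold change -0.32, SE 0.09, adjusted p = 0.0127). Dlst, its E2 component, had 164, 162 and 163 CPM and then 130.4, 119 and 139 CPM and fell by a similar amount (log2 fold change -0.33, SE 0.08, adjusted p = 0.00531). Both fell without overlap, whereas Dld, the shared E3 component, rose. Succinyl-CoA ligase pairs the alpha subunit Suclg1 with a GTP-forming beta subunit, Suclg2, or an ATP-forming one, Sucla2. Suclg2, at chr6:95473009-95718800, had 104, 104 and 98.2 CPM and then 144, 133 and 148 CPM, and it rose with a log2 fold change of 0.48 (SE 0.07, adjusted p = 0.000544). Sucla2 had 102, 107 and 106 CPM and then 99.2, 94.4 and 103 CPM (log2 fold change -0.09, SE 0.07, adjusted p = 0.278). Suclg1 had 102, 105 and 102 CPM and then 95.4, 86.1 and 101 CPM (log2 fold change -0.13, SE 0.08, adjusted p = 0.183). The groups overlapped for Sucla2 but not for Suclg1 or Suclg2. Fh1, fumarase, at chr1:175600374-175625635, had 57.1, 65.5 and 64.6 CPM and then 43.7, 37.0 and 51.9 CPM, and it fell without overlap (log2 fold change -0.50, SE 0.12, adjusted p = 0.00723).

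The enzymes that close and open the cycle, which make and use oxaloacetate, did not pass the test. Mdh2, mitochondrial malate dehydrogenase, had 435, 452 and 447 CPM in the Scr cultures and 393, 367 and 448 CPM after knockdown, with a log2 fold change of -0.14 (SE 0.09, adjusted p = 0.182). Cs, citrate synthase, had 379.9, 383 and 388 CPM and then 425, 384 and 462 CPM, with a log2 fold change of 0.14 (SE 0.08, adjusted p = 0.162). In both genes the third knockdown culture was the highest and the second the lowest of the knockdown cultures, and the groups overlapped.

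The cytosolic counterparts held the second largest fall of the 41. Idh1, the NADP-dependent isocitrate dehydrogenase of the cytosol at chr1:65158616-65186500, had 94.5, 101 and 82.6 CPM in the Scr cultures and 31.0, 30.7 and 34.7 CPM after knockdown. It fell 2.88-fold, with a log2 fold change of -1.53 (SE 0.09, adjusted p = 9.19e-06), and the knockdown cultures lay close together and far below the controls. Mdh1, the cytosolic malate dehydrogenase of the malate-aspartate shuttle, had 209, 220.5 and 228 CPM and then 179.7, 183 and 195 CPM, without overlap. Its log2 fold change of -0.24 (SE 0.07, adjusted p = 0.0177) passed the test in 4 of the 6 fits without a library. Aco1, the cytosolic aconitase that also serves as an iron-responsive RNA-binding protein, had 111, 106 and 109 CPM and then 124, 109 and 134 CPM (log2 fold change 0.16, SE 0.08, adjusted p = 0.129), with groups that overlapped.

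The malic enzymes make pyruvate from malate, and all 3 passed the test, 2 of them lower and 1 higher. Me1, the cytosolic NADP-dependent enzyme at chr9:86581371-86695953, had 124, 123 and 119 CPM in the Scr cultures and 92.7, 88.2 and 95.5 CPM after knockdown, a log2 fold change of -0.40 (SE 0.07, adjusted p = 0.000957). Me2, the mitochondrial NAD-dependent enzyme, had 76.0, 75.5 and 84.3 CPM and then 110.4, 98.3 and 125 CPM and rose (log2 fold change 0.50, SE 0.10, adjusted p = 0.00251). Me3, the mitochondrial NADP-dependent enzyme, was the least abundant of the 41, with 1.85, 2.55 and 2.04 CPM and then 1.24, 1.10 and 0.617 CPM, and 26 counts in its lowest library. Its log2 fold change was -1.11 with the largest standard error of the 41, 0.28 (adjusted p = 0.00934), and its exons share 391 bases with a transcript on the other strand. The groups did not overlap for any of the 3.

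Levels can be compared between genes per kb of merged exon. On this scale the Scr means ran from 0.478 CPM per kb for Me3 and 2.19 for Pcx to 305 for Mdh2, a 638-fold range, with Idh2 at 137, Cs at 131 and Acadm at 121. By this level Acadm ranked 4 of the 41 in the Scr cultures and 21 after knockdown, when it had 37.2 CPM per kb. Acads went from rank 8 to 23 and Idh1 from 25 to 35. Mdh2 and Me3 kept the highest and the lowest rank.

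**Figure D3:**
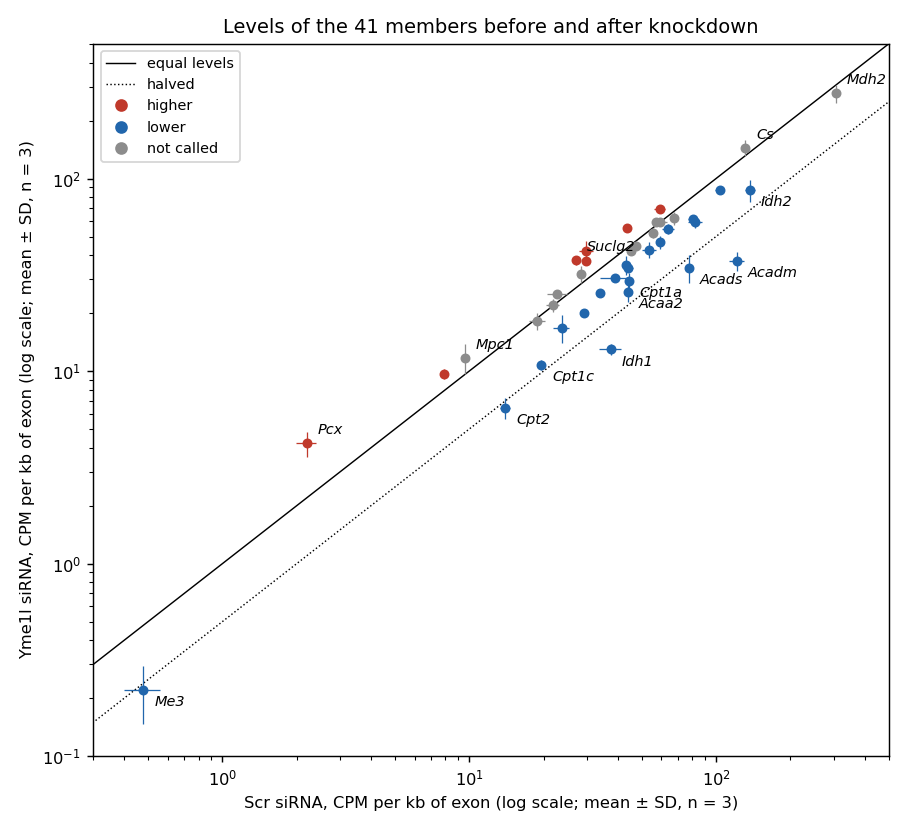
Mean level of each of the 41 genes in the Scr cultures (x axis) and the Yme1l siRNA cultures (y axis), in CPM per kb of exon on log scales, with bars for the SD of 3 cultures. The solid line marks equal levels and the dotted line a 2-fold fall, and Acadm, Acads, Cpt2, Idh1 and Me3 lie under the dotted line.

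The ratio of 2 transcripts within a library does not depend on its scaling, and 9 ratios of functional partners were computed, with pairs chosen after the changes were known. The log2 ratio of Idh3a to Idh2 was -1.65, -1.62 and -1.67 in the Scr cultures and -0.47, -0.61 and -0.86 after knockdown, a mean difference of 1.00. That of Acadl to Acadm moved from -1.47, -1.44 and -1.63 to 0.20, 0.20 and -0.13, a difference of 1.60, so that the long-chain transcript went from well below the medium-chain one to about its level in counts. Among subunits of 1 complex, the difference was 0.82 for Dld to Pdhb, 0.61 for Suclg2 to Suclg1 and 0.50 for Hadhb to Hadha. It was 0.90 for the mitochondrial Me2 to the cytosolic Me1, 0.52 for Cpt1a to Cpt2 and 1.41 for Pcx to Pdhb. In each of the 9 ratios the 2 groups did not overlap, and the two-sided exact permutation test over 3 against 3 libraries gave p = 0.1, the smallest it can give, before and after adjustment over the 9. Because the pairs were picked from the changes in these same libraries, the separation and the p-value describe them and add no support.

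Other genes of the same pathways were read from the same fit, with 8 lists of 83 genes, of which 78 could be tested. Of the 78, 22 rose, 33 fell and 23 did not pass the test, and the median log2 fold change was -0.18, beside 28.4% of all loci higher, 29.6% lower and a median of 0.01. The gates of pyruvate dehydrogenase moved in both directions, with 3 of 7 kinases and phosphatases higher and 2 lower. Pdk2, a kinase that inhibits the complex, had 10.8, 9.81 and 9.95 CPM in the Scr cultures and 4.01, 4.33 and 4.03 CPM after knockdown and fell (log2 fold change -1.31, adjusted p = 4.22e-05), as did the kinase Pdk1 (-0.67). Pdk4, the kinase raised by fasting, had 2.33, 2.52 and 2.2 CPM and then 5.82, 7.32 and 3.16 CPM and rose (log2 fold change 1.21, adjusted p = 0.00642), as did Pdk3 (0.60) and the phosphatase Pdp2 (0.74). The groups did not overlap for these 5, and the Pdk4 to Pdk2 log2 ratio rose by 2.43 (exact permutation p = 0.1). Of 5 genes for lipoate, the cofactor of the E2 components, 3 rose and 0 fell: Gcsh (1.11, from a mean of 43.0 to 92.5 CPM), which carries lipoate in the glycine cleavage system, the synthase Lias (0.33) and Mcat (0.25, called in 5 of the 6 fits without a library). Succinate dehydrogenase, which joins the cycle to the respiratory chain, had 1 of 4 genes higher, Sdhd (0.36), and 1 lower, Sdha (-0.30), whose call held in 2 of the 6 fits without a library.

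The lists around beta-oxidation are set beside 29.6% of all loci lower and 28.4% higher. Of 14 auxiliary enzymes of the mitochondrial pathway, 9 fell and 2 rose, with a median log2 fold change of -0.56. Ech1, a dienoyl-CoA isomerase for unsaturated chains, had 57.7, 60.7 and 55.5 CPM in the Scr cultures and 26.6, 26.5 and 27.6 CPM after knockdown (log2 fold change -1.11, adjusted p = 8.55e-06), and Eci2 (-0.81) and the thiolase Acat1 (-0.75) fell as well. The genes that rose were Acad10 (0.82) and the ketone body enzyme Oxct1 (0.31, called in 4 of the 6 fits without a library). Peroxisomes shorten very long and branched chains by a separate set of enzymes, and 8 of 13 of these genes fell and 2 rose, with a median of -0.59. Acaa1a, the peroxisomal thiolase, had 67.9, 62.1 and 58.2 CPM and then 22.2, 23.3 and 26.1 CPM (-1.40, adjusted p = 1.13e-05). The oxidase Acox3 (-1.24), the thiolase and sterol carrier Scp2 (-1.24) and the transporter Abcd2 (-1.51) also fell at least 2-fold, and Acot8 (0.48) and Ehhadh (0.56) rose. The call of Ehhadh held in 2 of the 6 fits without a library. Of 13 genes of acyl-CoA activation and carnitine handling, 6 fell and 3 rose (median -0.18). Mlycd, malonyl-CoA decarboxylase, which removes the inhibitor of CPT1, had 6.63, 7.57 and 7.25 CPM and then 2.95, 2.69 and 2.73 CPM (-1.36, adjusted p = 6.95e-05), and the fatty acid transporter Slc27a4 fell by 0.56 on the log2 scale. Acsl6, an acyl-CoA synthetase at a low level, had 0.300, 0.305 and 0.379 CPM and then 1.65, 2.12 and 1.42 CPM and rose (2.38, adjusted p = 0.000131).

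Of 10 regulators known to act on these pathways, 5 rose and 3 fell, beside 28.4% of all loci higher and 29.6% lower, with a median log2 fold change of 0.22. Ppargc1a, the coactivator PGC-1alpha, had 7.48, 8.65 and 10.5 CPM in the Scr cultures and 18.8, 19.8 and 19.1 CPM after knockdown and rose (log2 fold change 1.12, adjusted p = 0.000143). Its relatives Ppargc1b (1.12) and Pprc1 (0.67) rose too, as did Nrf1 (0.36) and the corepressor Nrip1 (0.36). The genes that fell were Esrra (-0.37), which encodes ERRalpha, Gabpa (-0.53) and Yy1 (-0.23). Of the 6 fits without a library, Yy1 was called in 2, Esrra in 4 and Nrip1 in 5. Ppara, Esrrb and Esrrg had at most 26 counts in any library and were not tested. Of 12 genes of anaplerosis and citrate export, 3 rose and 4 fell. The citrate carrier Slc25a1 had 75.7, 74.0 and 70.1 CPM and then 36.5, 39.8 and 38.9 CPM (-0.93, adjusted p = 1.80e-05), and the 2-oxoglutarate carrier Slc25a11 (-0.57) and ATP citrate lyase, Acly (-0.49), fell with it. Got2, the mitochondrial aspartate aminotransferase, had 219.9, 219.7 and 209 CPM and then 325, 382 and 384 CPM and rose (0.75, adjusted p = 0.000119), and the glutaminase Gls2 rose from a mean of 1.27 to 4.12 CPM (1.71).

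**Figure D4:**
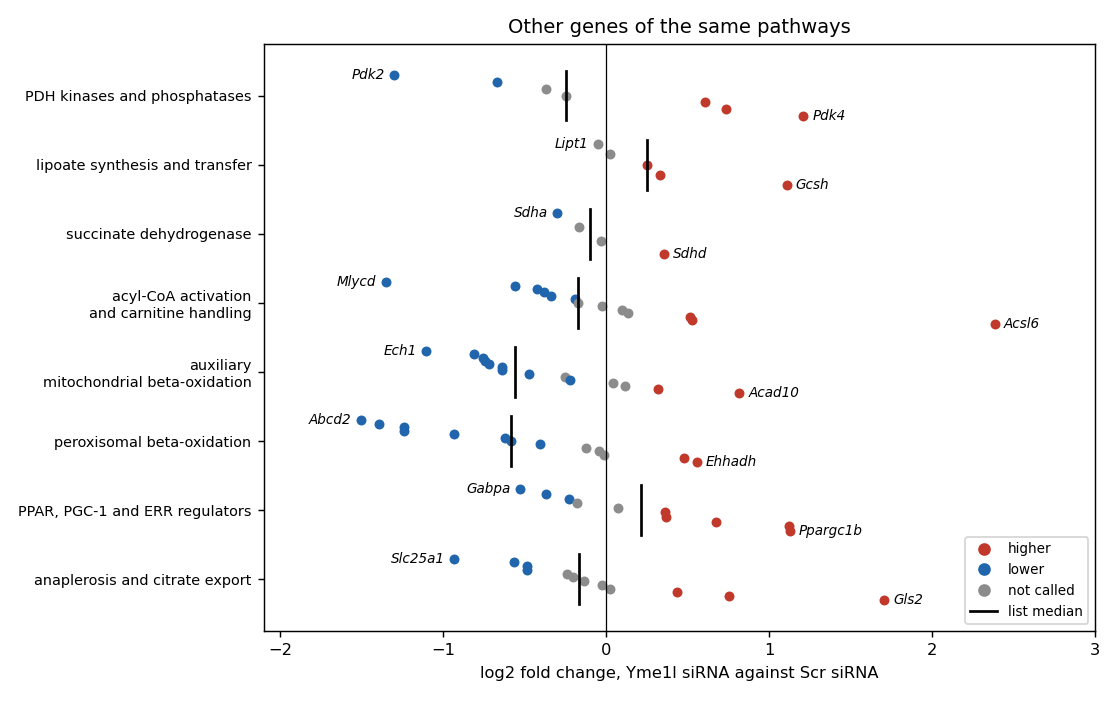
Log2 fold change (Yme1l siRNA against Scr siRNA) of the 78 other pathway genes tested, in 8 lists, with a point per gene coloured by the result of edgeR's quasi-likelihood test and a bar at each list's median. The medians of auxiliary mitochondrial and of peroxisomal beta-oxidation lie at -0.56 and -0.59, and those of the lipoate and regulator lists at 0.25 and 0.22.

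The calls differed in how firmly the libraries carried them. Of the 21 genes that fell, 18 passed the test in the same direction in all 6 fits that left out a library, and of the 7 that rose, 6 did. The other 4 were Mdh1, Hadh, Etfb and Idh3b, whose log2 fold changes were at most 0.28 in size. Of the 41 genes, 40 had at least 100 counts in every library, and the counts ran from 26, for Me3, to 19476. Exons of 8 of the 41 overlap a transcript on the other strand, and the libraries were stranded, but the sources used here do not state how the strand was treated in counting.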

How the data were processed

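RNA-Seq libraries of WT MEFs, 3 treated with Scr siRNA and 3 with Yme1l siRNA, were grouped by the sample labels. The methods and the submitters' processing notes name HISAT2 2.0.4 and the GRCm38 (mm10) build for mapping and StringTie 1.3.3 for assembly. For the comparison the notes list Cufflinks and Cuffdiff 2.2.1, and the methods name Cufflinks at that version. The authors deposited raw counts per locus, without normalization. The program that counted the reads, and its treatment of strand and of reads with several matches, are not given in the sources used here. A second deposited table holds the authors' own comparison (FPKM values combined per group, log2 fold changes, a test statistic, p-values and q-values), and none of it was used.

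Counts were analysed in R 4.3.3 with edgeR 4.0.16: filterByExpr (minimum count 10, minimum total 15), TMM scaling, and the quasi-likelihood test (glmQLFit, glmQLFTest) between the siRNA groups over all 14499 loci kept, with no covariate, with Benjamini-Hochberg adjustment and a threshold of 0.05. The SE is the size of the log2 fold change divided by the square root of F. The common biological coefficient of variation was 0.131. The scripts were tested on simulated counts in which 200 of 14499 genes were changed 2-fold. At the threshold of 0.05, edgeR recovered 79.5% of these, and 8.09% of its calls were false. The false share was 14.2% for DESeq2 and 7.65% for limma-voom, used as alternatives. Because 58.0% of loci were called in the data, far more than were changed in the simulation, these shares do not describe the calls reported here. Libraries of 37260605 to 45205207 counts differed within a group by more than counting noise (chi-square per degree of freedom 9.70 to 69.9), so each counts as 1 culture. Several gene names are joined in 635 loci.

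Coordinates, merged exon length and overlap with the other strand came from GENCODE M21 (GRCm38), and promoter windows from RefSeq (GRCm38.p6). Levels by library were given for every gene of the 41. In the other lists, up to 3 genes with the smallest adjusted p and any called gene with a change of at least 2-fold were named, and further genes were named after their values were seen. The 41 genes, the lists and the markers were chosen with earlier results of these data known. Some genes of the other lists are not reported here. Alternatives were other scaling (RLE, upper quartile), DESeq2 1.42.0, limma-voom (limma 3.58.1), other filters on low counts, a threshold of 0.01, the replicate number as a block, leaving out each library, and, chosen after seeing the data, leaving out the 31 loci of mitochondrial DNA. Figures were drawn with matplotlib 3.10.9.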

Additional observations from a re-analysis of the deposited data

How the results depend on the processing

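Of 574 refitted log2 fold changes of the 41 genes under 14 alternatives, 0 reversed, 559 stayed on their side of the threshold, 11 lost the call and 4 gained it, all in fits that left out a library: Idh3b, Mdh1, Hadh and Etfb lost it and Mpc1, Cs, Mdh2 and Aco1 gained it in some of them. The counts were 7 higher and 21 lower under RLE and upper-quartile scaling, DESeq2, limma-voom, both other filters and without the mitochondrial DNA loci, and 6 and 16 at a threshold of 0.01. Without 1 library they were 6 to 9 higher and 18 to 22 lower, and fatty acid oxidation and electron transfer had 10 to 12 lower and 0 higher. The median log2 fold change of the 41 ran from -0.28 (without the first Scr culture) to -0.18 (without the second Yme1l siRNA culture) when a library was left out, and from -0.24 to -0.19 otherwise. The cytosolic and malic enzymes had 1 to 2 higher without a library, the latter without the second Yme1l siRNA culture, when Aco1 also passed the test. Same-numbered cultures were weakly correlated in their deviations from the group means (0.04, 0.12 and 0.19), and differently numbered ones ran from -0.18 to 0.09. Nothing states that the numbers pair the cultures, and these values do not settle it. With the replicate number as a block, 7 of the 41 were higher and 21 lower, with 4227 and 4460 of all loci in place of 4123 and 4288, and no call among the 41 changed. Of 1091 refitted values of the other pathway genes, 0 reversed, 37 lost the call and 8 gained it, among them Pdpr with the block (-0.39, adjusted p = 0.0200). Depth limits Me3 most, with 26 counts in its lowest library.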

Other observations

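Among the 21 genes that fell, the third Yme1l siRNA culture had the highest level of the 3 knockdown cultures in 16 (76.2%), beside 47.6% of the 4288 loci that fell. This was the culture with the most Yme1l1 transcript left, at 45.0 CPM against 31.6 and 23.4 CPM in the other two. It held for 8 of the 12 genes of fatty acid oxidation and electron transfer that fell. Among the 7 genes that rose, the third culture was the lowest of the knockdown cultures in 1 and the second in 4, beside 45.8% and 31.5% of the 4123 loci that rose. The third culture was not high only among the genes that fell. It was the highest knockdown culture for Pdhx, Suclg2 and Me2, which rose, and not for Dld, Idh3a, Idh3b or Pcx. Among the genes not called, it was the highest for Pdha1, Dlat, Cs, Suclg1, Sucla2, Mdh2, Aco1 and Hadhb. It was not the highest for Mpc1, Mpc2, Idh3g, Acadl or Etfa. These shares and orders are descriptions of the 6 libraries, and a relation to the depth of the knockdown was not tested.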
